A study of Homo sapiens with 52 samples.

Results

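The 8 genes described here belong to the zinc-buffering system of the cell. They are the metallothioneins MT2A, MT1E, MT1F, MT1G, MT1M and MT1X, the metal-responsive transcription factor MTF1 and the zinc exporter SLC30A1, also called ZnT1. They were taken by gene symbol from 2 tables of read counts, of 62696 genes in the tumour lines and 61209 genes in the macrophages, because earlier results of the same data showed them raised in tumour cells by PKF118-310 and lowered in co-cultured macrophages. Those values chose the genes, so both comparisons are given as descriptions without a test. The tests below are on the responses to iMDK, the difference between the untreated lines, and the difference between the co-cultures. Except where iMDK doses are compared with each other, these tests share vehicle or untreated co-culture libraries with the contrasts that chose the genes.

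RNA was sequenced from 52 libraries. Huh6 and HepG2, lines used as models of hepatoblastoma, a childhood liver tumour, were treated for 48 h with PKF118-310, an inhibitor of Wnt/beta-catenin signalling, at 0.2, 0.3 or 0.4 µM (0.4 µM in Huh6 only), with the midkine (MDK) inhibitor iMDK at 5 or 10 µM, or with vehicle. Macrophages derived from the monocytic leukaemia line THP-1 with a phorbol ester were kept for 24 h with HepG2 or Huh6 cells that had received iMDK at 5 or 10 µM for 24 h or none, or were kept alone, and the co-cultured THP-1 cells were sorted before RNA was isolated. Each group had 3 libraries except HepG2 at 0.3 µM PKF118-310, which had 1. All tumour cells come from 2 lines and all macrophages from 1, and nothing in the labels says whether the replicates were separate cultures, so p-values measure the spread between these libraries, which may be technical.

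Library totals were 18172462 to 19912509 counts in Huh6, 18284605 to 20043105 counts in HepG2 and 12623973 to 16940245 counts in THP-1. Of 24 hepatoblastoma markers, 23 had counts in both vehicle-treated lines. Of 20 macrophage markers, 16 had counts in THP-1 alone, whereas CD68, CYBB, FCGR1A and C1QA were listed at 0. In THP-1 co-cultured with untreated HepG2 the summed hepatoblastoma markers reached 3240 to 3810 CPM, against 58.9 to 71.1 CPM in THP-1 alone, which bears on every macrophage result below.

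Metallothioneins are very small proteins that bind zinc and copper through clusters of cysteine thiols, and the liver is a main site of their synthesis. When free zinc rises, MTF1 binds metal response elements in their promoters and in the promoter of SLC30A1, so that zinc is both bound and pumped out of the cell. Cadmium, oxidative stress and glucocorticoids also raise metallothionein transcription.

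The metallothioneins are close paralogues, and their coding sequences are shown because reads can fit more than 1 of them. The sequences below, from GENCODE 29 on GRCh38, run 5′ to 3′ without the stop codon, and capitals mark the in-frame cysteine codons (TGC or TGT). They belong to the 4 metallothioneins with the most counts in these libraries, MT2A (chr16:56608656-56609351, plus strand), MT1E (chr16:56625852-56626968, plus strand), MT1F (chr16:56658059-56659161, plus strand) and MT1G (chr16:56666882-56667993, minus strand), where each interval spans the first to the last coding base.
MT2A: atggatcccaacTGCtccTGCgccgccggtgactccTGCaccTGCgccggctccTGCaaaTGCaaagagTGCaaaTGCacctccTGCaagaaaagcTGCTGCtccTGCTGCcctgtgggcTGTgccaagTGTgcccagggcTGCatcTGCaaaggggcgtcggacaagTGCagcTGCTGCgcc
MT1E: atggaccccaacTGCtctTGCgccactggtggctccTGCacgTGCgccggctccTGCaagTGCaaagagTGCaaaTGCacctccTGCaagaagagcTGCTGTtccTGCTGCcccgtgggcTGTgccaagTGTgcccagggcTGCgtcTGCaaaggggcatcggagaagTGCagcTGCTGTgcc
MT1F: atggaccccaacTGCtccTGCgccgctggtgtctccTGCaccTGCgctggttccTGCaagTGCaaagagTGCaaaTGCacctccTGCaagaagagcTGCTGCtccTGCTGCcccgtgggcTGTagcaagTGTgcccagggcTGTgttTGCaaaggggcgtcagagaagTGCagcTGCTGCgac
MT1G: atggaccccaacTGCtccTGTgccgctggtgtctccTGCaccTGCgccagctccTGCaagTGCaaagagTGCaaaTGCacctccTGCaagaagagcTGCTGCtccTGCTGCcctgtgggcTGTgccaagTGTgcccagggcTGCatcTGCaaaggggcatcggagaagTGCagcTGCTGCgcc

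Each of the 6 metallothioneins had 61 codons, 20 of them for cysteine, and the cysteine codons stood at the same positions in all 15 pairs. Coding identity ran between 88.5% (MT1F and MT1X) and 95.1% (MT2A and MT1G). The longest run of bases shared exactly by 2 of their transcripts was between 32 and 96 bases, the longest for MT1G and MT1X. How reads that fit several of these genes were counted is not given in the sources used here, so single metallothionein values are uncertain to that extent, and values for their sum are given where they differ in a call.

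Promoters of 4 of the 8 genes were found in the RefSeq table for GRCh38.p14, covering 250 bases before to 50 bases after the start. They were searched on both strands for the core of the metal response element, as TGCACNC or TGCGCNC. MT2A (chr16:56608334-56608633, plus strand) held 8 matches and SLC30A1 (chr1:211579112-211579411, minus strand) held 2, none overlapping another, and both promoters are shown with the matches in capitals because MT2A and the exporter are followed through every comparison below.
MT2A: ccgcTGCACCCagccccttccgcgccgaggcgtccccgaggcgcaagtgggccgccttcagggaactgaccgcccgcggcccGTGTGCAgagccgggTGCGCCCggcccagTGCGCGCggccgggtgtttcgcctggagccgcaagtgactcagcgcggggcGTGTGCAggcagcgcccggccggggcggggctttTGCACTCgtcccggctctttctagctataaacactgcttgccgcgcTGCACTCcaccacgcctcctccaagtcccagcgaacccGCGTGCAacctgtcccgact
SLC30A1: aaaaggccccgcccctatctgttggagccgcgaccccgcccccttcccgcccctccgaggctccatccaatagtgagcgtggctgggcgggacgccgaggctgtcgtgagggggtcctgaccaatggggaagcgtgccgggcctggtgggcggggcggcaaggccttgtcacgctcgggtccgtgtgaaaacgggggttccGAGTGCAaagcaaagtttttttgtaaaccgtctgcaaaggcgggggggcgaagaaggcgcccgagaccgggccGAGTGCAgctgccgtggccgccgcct

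The promoter of MT1X held 4 matches and that of MTF1 none. At least 1 match was present in 29.6% of the 35116 promoters of the table, at least 2 in 8.6%, and at least 8 in 0.0199%, or 7 promoters. A match is a run of letters and not a measured binding site.

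The members differed widely in level between the cell types. MT1X was listed at 0 counts in all 52 libraries. In GENCODE 29 it overlaps a second gene, AC026461.1, on the same strand between 56682470 and 56684196 of chromosome 16, and no level is given for it here. MT1M was close to the limit of detection, with 64 counts over the 18 Huh6 libraries, 62 over the 13 HepG2 libraries and 165 over the 21 THP-1 libraries. A filter on low counts left 6 of the 8 genes to test in Huh6, 7 in HepG2 and 7 in THP-1. MT1M passed it in the tumour lines through the PKF118-310 groups.

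In vehicle-treated cells, HepG2 had more MT2A and MT1E than Huh6 and less MT1F. MT2A stood at 93.3, 93.1 and 100 CPM in HepG2 and 18, 21.2 and 19.4 CPM in Huh6, where CPM are read counts relative to the TMM-scaled library total. All HepG2 values lay above all Huh6 values. The log2 fold change was 2.29 ± 0.057 (SE, n = 3 each, edgeR quasi-likelihood test with Benjamini-Hochberg adjustment over all genes, adjusted p = 6.55e-25).

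MT1E separated the lines completely. Its counts were 564, 611 and 610 in vehicle-treated HepG2 and 0 in each of the vehicle-treated Huh6 libraries, and the 18 Huh6 libraries of all treatments held 1 MT1E count together. Allowing 3 counts over the 3 Huh6 vehicle libraries, MT1E was at least 605-fold higher in HepG2.

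MT1F went the other way. It measured 6.21, 6.11 and 6.30 CPM in HepG2, against 17.8, 20.5 and 18.6 CPM in Huh6, with no overlap and a log2 fold change of -1.61 ± 0.10 (edgeR adjusted p = 1.16e-14). MTF1 was 23.4 ± 2.08 CPM in HepG2 and 18 ± 0.423 CPM in Huh6 (SD, n = 3 each), a log2 fold change of 0.37 ± 0.079 (edgeR adjusted p = 9.43e-05). MT1G averaged 7.98 ± 0.665 CPM in HepG2 and 9.12 ± 0.886 CPM in Huh6, overlapped, and did not pass (log2 fold change -0.19 ± 0.12, edgeR adjusted p = 0.141). SLC30A1 was slightly lower in HepG2, at 96.7 ± 4.73 CPM against 105 ± 1.61 CPM in Huh6 (log2 fold change -0.12 ± 0.040, edgeR adjusted p = 0.00621). Without HepG2 vehicle replicate 1 that difference was -0.07 and did not pass (edgeR adjusted p = 0.0936). Of the 6 members tested here, 3 were higher and 2 lower in HepG2. Of all genes tested, 83% differed between the lines, 40.4% being higher and 42.6% lower in HepG2.

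Set per kilobase of exon in GENCODE 29, which need not match the annotation of the files, MT2A made up 60.8 to 61.8% of the summed MT1 and MT2A signal in vehicle-treated HepG2, 36.4 to 38.7% in vehicle-treated Huh6 and 50.6 to 52.0% in THP-1 alone. The exon length used for MT2A, 1299 bases, is its whole gene span with introns included. Its per-kilobase levels are therefore too low to an unknown extent. Its shares, and its ranks against MT1G and SLC30A1 in Huh6, depend on that length and on those of the other genes, and are uncertain. Per kilobase, MT2A had the highest level of the 8 genes in HepG2 (75.6 ± 3.48 CPM per kb) and in THP-1 alone (49.1 ± 8.14 CPM per kb), while in Huh6 it stood at 15 ± 1.20 CPM per kb and SLC30A1 at 19.2 ± 0.335 CPM per kb (SD, n = 3 each). MT1G came next to MT2A among the metallothioneins of Huh6 at 12.2 ± 1.20 CPM per kb, and its highest library (13.4) lay below the lowest of MT2A (13.9). MT1F stood at 10.0 ± 0.718 CPM per kb there, over an exon length of 1889 bases against 750 bases for MT1G. Before division by length, MT1F averaged 18.9 CPM and MT1G 9.11 CPM, so their order depends on those lengths and is uncertain.

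**Figure D1:**
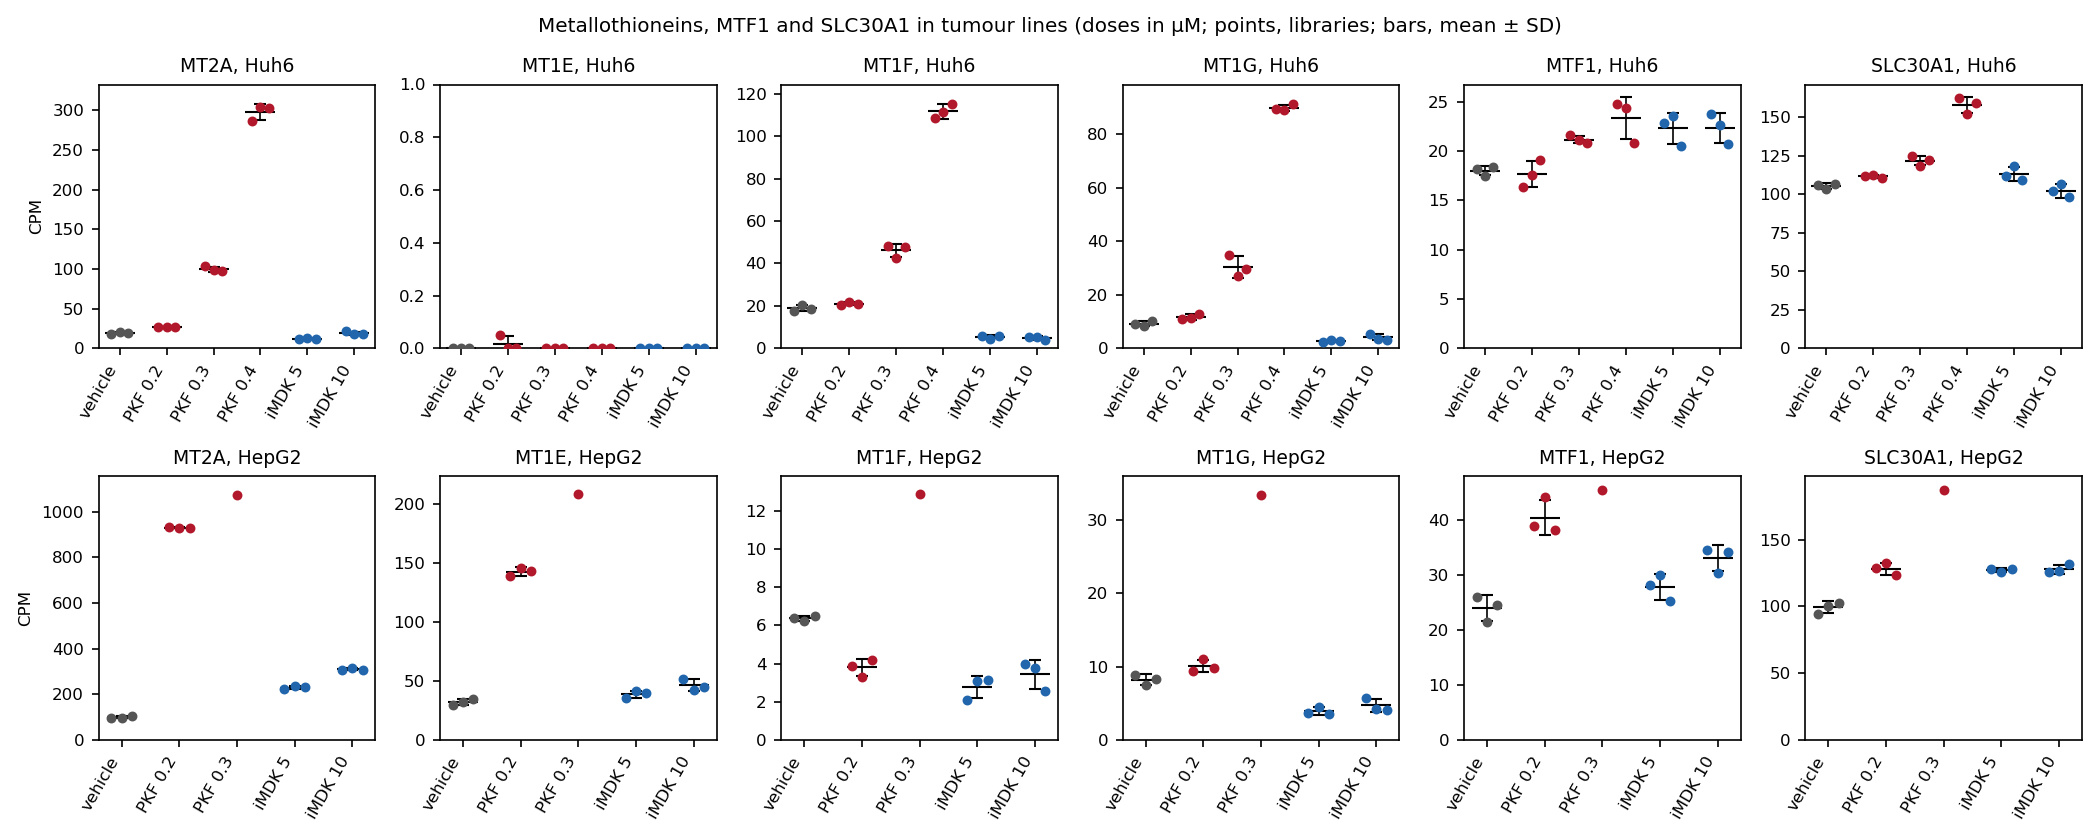
CPM of 6 genes in Huh6 (upper row) and HepG2 (lower row), with vehicle, PKF118-310 and iMDK doses in µM along the horizontal axis; points are libraries and bars the mean ± SD, except for the single HepG2 library at 0.3 µM. MT2A climbs with PKF118-310 dose to 298 CPM in Huh6, and MT1E stays at or next to 0 in Huh6.

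PKF118-310 raised the metallothioneins of Huh6 step by step with dose. This is the contrast by which the genes were chosen, so the values describe it and no test is given. MT2A measured 18, 21.1 and 19.4 CPM in Huh6 vehicle libraries, 26.5, 27.4 and 26.4 CPM at 0.2 µM, 103, 98.8 and 97.0 CPM at 0.3 µM, and 286, 304 and 303 CPM at 0.4 µM. No dose overlapped the one below it. Log2 fold changes against vehicle were 0.46 ± 0.064, 2.35 ± 0.053 and 3.93 ± 0.049.

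MT1G in Huh6 measured 9.10, 8.22 and 10.0 CPM with vehicle, 10.9, 11.2 and 12.9 CPM at 0.2 µM, 35.0, 26.9 and 29.4 CPM at 0.3 µM, and 89.3, 89.1 and 91.1 CPM at 0.4 µM. Its log2 fold changes were 0.36 ± 0.11, 1.74 ± 0.096 and 3.30 ± 0.086. MT1F followed at a lower slope, with means of 18.9, 21.1, 46.2 and 112 CPM over the same 4 groups and log2 fold changes of 0.16 ± 0.077, 1.29 ± 0.069 and 2.56 ± 0.063. For both genes the doses stood in the same order in every library, with no overlap between neighbouring groups.

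MT1M had 0 counts in the 3 Huh6 vehicle libraries and, by library, 0, 0 and 4 counts at 0.2 µM, 6, 1 and 8 at 0.3 µM, and 15, 18 and 12 at 0.4 µM. Allowing 3 counts over the vehicle group, it was at least 5.04-fold higher at 0.3 µM and at least 14.8-fold higher at 0.4 µM. Its single value at 0.2 µM rests on replicate 3, without which the group is at 0.

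The regulator and the exporter of Huh6 moved far less than the metallothioneins. SLC30A1, which carries zinc out across the plasma membrane, measured 106, 103 and 106 CPM with vehicle, 112, 112 and 110 CPM at 0.2 µM, 124, 118 and 122 CPM at 0.3 µM, and 162, 152 and 159 CPM at 0.4 µM. The groups did not overlap, and the log2 fold changes were 0.08 ± 0.036, 0.21 ± 0.036 and 0.58 ± 0.035. MTF1 averaged 18, 17.7, 21.2 and 23.4 CPM over the 4 groups, overlapping vehicle at 0.2 µM only. Past an adjusted p of 0.05 in edgeR stood 1 of the 6 tested members at 0.2 µM, against 1.04% of all genes higher, and all 6 at 0.3 and 0.4 µM, against 15% and 28.9% of all genes higher. The rule used this contrast, so nothing is read from these counts.

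In HepG2 the same compound raised MT2A and MT1E at its lowest dose, and MT1F went against the direction by which the genes were chosen. MT2A measured 934, 930 and 927 CPM at 0.2 µM, against 96.3, 94.9 and 103 CPM with vehicle, a log2 fold change of 3.25 ± 0.035. MT1E measured 139, 146 and 143 CPM at 0.2 µM, against 29.9, 32.0 and 34.7 CPM with vehicle, a log2 fold change of 2.15 ± 0.058. MT1F measured 3.87, 3.32 and 4.19 CPM at 0.2 µM, against 6.41, 6.23 and 6.48 CPM with vehicle, a log2 fold change of -0.75 ± 0.16. None of these groups overlapped.

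MT1G in HepG2 averaged 10.1 ± 0.843 CPM at 0.2 µM and 8.19 ± 0.737 CPM with vehicle, a log2 fold change of 0.30 ± 0.12. MT1M had 9, 10 and 10 counts at 0.2 µM, against 0, 0 and 3 with vehicle, a ratio of 9.47 with a 95% counting interval of 2.93 to 48.6. MTF1 averaged 40.5 ± 3.25 CPM at 0.2 µM and 24.0 ± 2.30 CPM with vehicle (log2 fold change 0.75 ± 0.073), and SLC30A1 128 ± 4.53 CPM at 0.2 µM and 99.2 ± 4.49 CPM with vehicle (0.37 ± 0.039). Past the edgeR threshold stood 6 of the 7 tested members higher, against 34.3% of all genes, and 1 lower, against 33.4%. This contrast also served to choose the genes, so nothing is read from these counts.

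The single HepG2 library at 0.3 µM has no replicate check. It held MT2A at 1070 CPM, MT1E at 208 CPM, MT1G at 33.5 CPM, MT1F at 12.9 CPM, MTF1 at 45.5 CPM and SLC30A1 at 187 CPM. All 6 values stood above every HepG2 vehicle library and every library at 0.2 µM, MT1F included. On the scale of log2(CPM + 0.5), MT2A was 3.44, MT1E 2.68, MT1G 1.97 and MT1F 0.96 above the vehicle mean. A rise of at least 2-fold was found for 7.6% of all genes in that library.

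Some other metallothioneins, not among the chosen genes, were also higher with PKF118-310. These were MT1H and MT1B in Huh6 and MT1A and MT1B in HepG2. They are paralogues seen in the contrast that chose the genes, so they are described and are no separate support. MT1H had 6, 5 and 5 counts with vehicle, 25, 31 and 12 at 0.2 µM, 236, 219 and 235 at 0.3 µM, and 750, 739 and 755 at 0.4 µM in Huh6, but 3 counts in all 13 HepG2 libraries together. MT1B had 1 count in the Huh6 vehicle group and 374 at 0.4 µM, a ratio of 370 with a 95% counting interval of 66.0 to 14700. In HepG2 MT1B had 12 counts at 0.2 µM and 0 with vehicle, which makes it at least 3.92-fold higher when 3 counts are allowed over the vehicle group. MT1A averaged 3.23 ± 0.670 CPM at 0.2 µM and 1.19 ± 0.304 CPM with vehicle in HepG2. In Huh6 it averaged 1.67 ± 0.219 CPM at 0.4 µM and 1.06 ± 0.343 CPM with vehicle, and these groups overlapped. The MT1H promoter held 8 matches to the metal response core and that of MT1B 3.

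Zinc transporters were followed as context under PKF118-310. Of 10 SLC39 importers tested, which bring zinc into the cytosol, 5 fell and none rose in Huh6 at 0.4 µM, where 27.9% of all genes fell and 28.9% rose. In HepG2 at 0.2 µM 8 fell and 1 rose, where 33.4% of all genes fell and 34.3% rose. SLC39A5 averaged 109 ± 4.76 CPM at 0.4 µM and 261 ± 7 CPM with vehicle in Huh6, and 19.1 ± 1.02 CPM at 0.2 µM and 82.9 ± 2.77 CPM with vehicle in HepG2. SLC39A14, an importer of zinc, iron and manganese in the liver, averaged 360 ± 6.42 CPM at 0.2 µM and 1180 ± 55.0 CPM with vehicle in HepG2. Of the exporters other than SLC30A1, SLC30A7, a transporter of the secretory pathway, rose in HepG2 (75 ± 3.62 CPM at 0.2 µM, 49.6 ± 1.68 CPM with vehicle), 3 of 6 fell, and in Huh6 at 0.4 µM 2 of 7 fell and none rose. The median log2 fold change of the importers was -0.18 in Huh6 at 0.4 µM, where that of all genes was -0.01, and -0.39 in HepG2 at 0.2 µM, where that of all genes was 0.01.

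iMDK was not used to choose the genes, and it split the family. In HepG2 it raised MT2A and MT1E while MT1F and MT1G fell. In Huh6 it lowered MT1F and MT1G as well, with no rise in MT2A at either dose.

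MT2A in HepG2 measured 96.3, 94.9 and 103 CPM with vehicle, 221, 235 and 232 CPM at 5 µM, and 306, 316 and 308 CPM at 10 µM. No dose overlapped another. On the log2 scale the changes against vehicle were 1.23 ± 0.035 at 5 µM (edgeR adjusted p = 1.82e-27) and 1.66 ± 0.035 at 10 µM (edgeR adjusted p = 2.53e-32), and 10 µM stood 0.43 ± 0.032 above 5 µM (edgeR adjusted p = 2.32e-13).

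MT2A in Huh6 measured 18, 21.1 and 19.4 CPM with vehicle, 11.9, 12.7 and 12.4 CPM at 5 µM, and 21.4, 18.3 and 17.7 CPM at 10 µM. The 5 µM libraries lay below both other groups, which overlapped each other. MT2A fell at 5 µM by a log2 fold change of -0.66 ± 0.074 (edgeR adjusted p = 7.33e-10), and at 10 µM its log2 fold change of -0.03 ± 0.068 did not pass (edgeR adjusted p = 0.782). Between the doses it was 0.63 ± 0.074 higher at 10 µM (edgeR adjusted p = 5e-09). Counted as a single feature, the sum of all MT1 and MT2A reads of Huh6 was lower at 10 µM too, with a log2 fold change of -0.72 (edgeR adjusted p = 1.96e-14).

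MT1F fell in both lines. In HepG2 it measured 6.41, 6.23 and 6.48 CPM with vehicle, 2.09, 3.10 and 3.14 CPM at 5 µM, and 3.98, 3.77 and 2.54 CPM at 10 µM. In Huh6 it measured 17.8, 20.4 and 18.6 CPM with vehicle, 5.78, 4.56 and 5.96 CPM at 5 µM, and 5.47, 5.45 and 3.86 CPM at 10 µM. Treated libraries lay below vehicle in both lines, and the doses overlapped each other. The log2 fold changes were -1.20 ± 0.17 and -0.89 ± 0.16 in HepG2 (edgeR adjusted p = 1.46e-07 and 1.22e-05) and -1.80 ± 0.099 and -1.93 ± 0.10 in Huh6 (edgeR adjusted p = 3.46e-19 and 2.46e-20), at 5 and 10 µM in that order.

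MT1G also fell in both. It measured 8.90, 7.43 and 8.25 CPM with vehicle, 3.63, 4.50 and 3.54 CPM at 5 µM, and 5.76, 4.27 and 4.14 CPM at 10 µM in HepG2. In Huh6 the values were 9.10, 8.22 and 10.0 CPM with vehicle, 2.47, 2.96 and 2.81 CPM at 5 µM, and 5.42, 3.67 and 3.21 CPM at 10 µM. No treated library reached a vehicle library of its line. Log2 fold changes at 5 and 10 µM were -1.07 ± 0.14 and -0.79 ± 0.13 in HepG2 (edgeR adjusted p = 1.68e-08 and 2.42e-06) and -1.73 ± 0.15 and -1.15 ± 0.14 in Huh6 (edgeR adjusted p = 6.2e-13 and 1.88e-09). In Huh6 MT1G was 0.58 ± 0.18 higher at 10 than at 5 µM (edgeR adjusted p = 0.0114). That difference did not pass without 5 µM replicate 1 (0.51, edgeR adjusted p = 0.0605) or without 10 µM replicate 1 (0.33, edgeR adjusted p = 0.243).

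MT1E in HepG2 averaged 32.2 ± 2.41 CPM with vehicle, 38.8 ± 2.96 CPM at 5 µM and 46.2 ± 5.17 CPM at 10 µM, with log2 fold changes of 0.27 ± 0.067 (edgeR adjusted p = 0.000763) and 0.52 ± 0.065 (edgeR adjusted p = 6.31e-09). Its step of 0.25 ± 0.062 between the doses (edgeR adjusted p = 0.00399) did not pass without 5 µM replicate 1 or without 10 µM replicate 1 (edgeR adjusted p = 0.0639 and 0.107). In Huh6 MT1E had 0 counts at both iMDK doses. MT1M had 2, 3 and 2 counts at 5 µM and 1, 0 and 0 at 10 µM in HepG2 and none in Huh6, at or under the limit of detection.

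**Figure D2:**
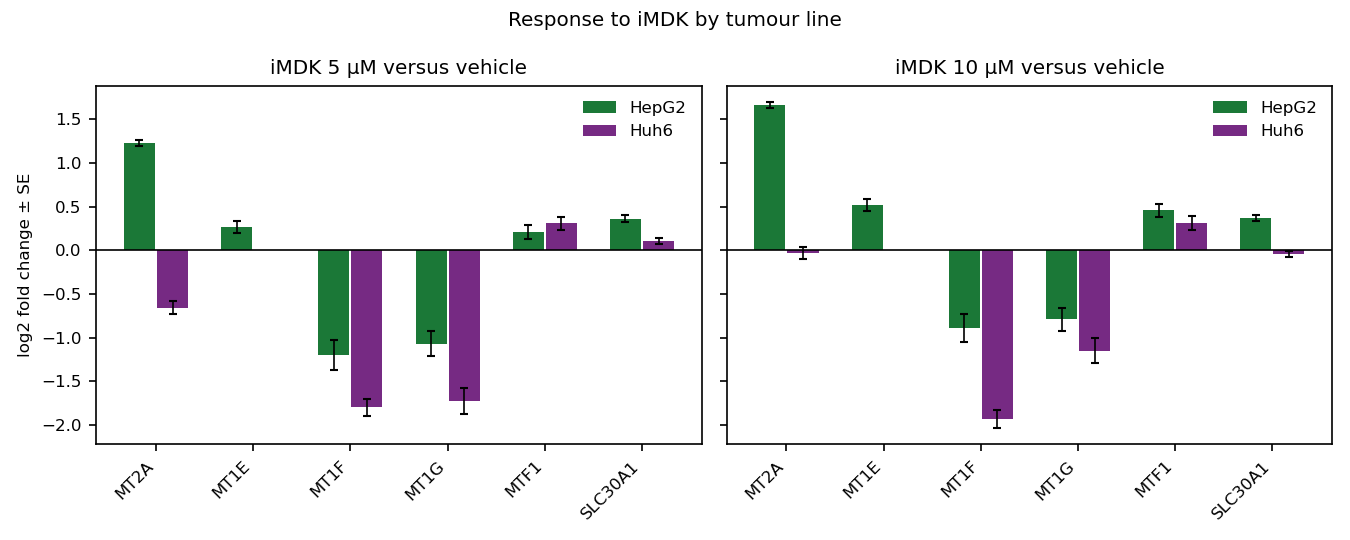
log2 fold change ± SE of 6 genes at 5 µM (left) and 10 µM iMDK (right) against vehicle, from 3 libraries a group, in HepG2 (green) and Huh6 (purple); no bar is drawn for MT1E in Huh6, where it had no counts. MT2A rises in HepG2 (1.66 at 10 µM) and not in Huh6 (-0.03), while MT1F and MT1G fall in both.

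MTF1, the zinc sensor of the system, was higher with iMDK in both lines. It averaged 24.0 ± 2.30 CPM with vehicle, 27.8 ± 2.37 CPM at 5 µM and 33.1 ± 2.4 CPM at 10 µM in HepG2, and 18 ± 0.457, 22.3 ± 1.59 and 22.4 ± 1.5 CPM in Huh6 over the same doses. On the log2 scale the changes at 10 µM were 0.46 ± 0.075 in HepG2 (edgeR adjusted p = 1.47e-06) and 0.31 ± 0.077 in Huh6 (edgeR adjusted p = 0.000606). At 5 µM they were 0.21 ± 0.077 in HepG2, where the groups overlapped (edgeR adjusted p = 0.0213), and 0.31 ± 0.076 in Huh6 (edgeR adjusted p = 0.00114). The HepG2 value at 5 µM did not pass without vehicle replicate 2 or without 5 µM replicates 1 or 2 (edgeR adjusted p = 0.175, 0.0529 and 0.138). The HepG2 step of 0.25 ± 0.073 between the doses (edgeR adjusted p = 0.0148) did not pass without 5 µM replicate 3 or without 10 µM replicates 1 or 3 (edgeR adjusted p = 0.108, 0.0853 and 0.0746).

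SLC30A1 rose in HepG2, where it measured 94.2, 101 and 103 CPM with vehicle, 128, 126 and 128 CPM at 5 µM, and 126, 127 and 132 CPM at 10 µM. Treated libraries lay above all vehicle libraries and the doses overlapped. The log2 fold changes were 0.36 ± 0.039 (edgeR adjusted p = 4.28e-10) and 0.37 ± 0.039 (edgeR adjusted p = 1.65e-10). In Huh6 SLC30A1 averaged 105 ± 1.81 CPM with vehicle, 113 ± 4.51 CPM at 5 µM and 102 ± 4.46 CPM at 10 µM. The log2 fold change of 0.11 ± 0.036 at 5 µM passed (edgeR adjusted p = 0.0187), but not without vehicle replicate 2 or 5 µM replicate 2 (edgeR adjusted p = 0.0739 and 0.146), and that of -0.04 ± 0.036 at 10 µM did not pass (edgeR adjusted p = 0.384). Between the doses SLC30A1 was lower at 10 µM in Huh6 (-0.14 ± 0.036, edgeR adjusted p = 0.00198).

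Over the tested members, 4 of 7 rose and 2 fell in HepG2 at each dose, where 23.2% and 24.1% of all genes rose and fell at 5 µM and 27.3% and 27.2% at 10 µM. In Huh6 2 of 6 rose and 3 fell at 5 µM (17.3% and 18.3% of all genes), and 1 rose and 2 fell at 10 µM (26% and 26.1%). MT1M is counted among the 6 but had no counts in Huh6 with vehicle or iMDK, so it could not be called. It is also among the 7 in HepG2, at or under the limit of detection. Between 10 and 5 µM, 3 of 7 were higher in HepG2 (6.5% of all genes), and in Huh6 2 of 6 were higher and 1 lower (12.7% and 12.2%).

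Tested directly, the response of MT2A to iMDK differed between the lines by 1.90 ± 0.084 on the log2 scale at 5 µM and by 1.71 ± 0.080 at 10 µM, HepG2 minus Huh6 (edgeR adjusted p = 4.5e-23 and 1.05e-22). SLC30A1 differed by 0.27 ± 0.055 and 0.44 ± 0.056 (edgeR adjusted p = 0.000107 and 7.32e-09). MT1F fell less in HepG2, by 0.61 ± 0.22 at 5 µM and 1.07 ± 0.21 at 10 µM (edgeR adjusted p = 0.0262 and 5.28e-05), and MT1G by 0.67 ± 0.23 at 5 µM (edgeR adjusted p = 0.021), with a difference of 0.38 ± 0.22 at 10 µM that did not pass (edgeR adjusted p = 0.167). MTF1 differed by -0.08 ± 0.11 and 0.18 ± 0.11 and did not pass at either dose (edgeR adjusted p = 0.627 and 0.204). The difference for MT1E could not be measured, since Huh6 had no counts. Of 6 members tested, counting MT1E, 4 had a higher response in HepG2 at 5 µM and 3 at 10 µM. Of all genes, 14.8% and 19.8% did.

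2 of these differences lay near the threshold, and each was lost when any 1 of several libraries was left out. At 5 µM the MT1F difference did not pass without Huh6 vehicle replicate 2, Huh6 5 µM replicate 2, HepG2 5 µM replicate 2 or HepG2 5 µM replicate 3 (edgeR adjusted p = 0.0592 to 0.0949). The MT1G difference at 5 µM did not pass without Huh6 vehicle replicate 3, Huh6 5 µM replicate 1 or HepG2 5 µM replicate 2 (edgeR adjusted p = 0.0561 to 0.0856). At 10 µM the MT1G difference passed once Huh6 10 µM replicate 1 was left out (0.64, edgeR adjusted p = 0.0197).

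The genes around these members give their context under iMDK. Of 10 stress genes that metals also induce, 10 rose in Huh6 and 8 in HepG2 at 10 µM, and none fell in either, where 26% and 27.3% of all genes rose. TXNRD1, a selenoenzyme that reduces thioredoxin, rose by 2.4 ± 0.025 in Huh6 and 1.73 ± 0.030 in HepG2 at 10 µM (edgeR adjusted p = 1.02e-45 and 5.52e-35). HSPA1A, an inducible heat shock protein, rose by 2.11 ± 0.20 in Huh6 and 1.06 ± 0.044 in HepG2 (edgeR adjusted p = 5.36e-12 and 9.96e-23). Tested directly at 10 µM, 8 of the 10 genes had a lower response in HepG2 than in Huh6, where 21% of all genes did, among them TXNRD1 (-0.64 ± 0.039, edgeR adjusted p = 1.37e-18), and SLC7A11 had a higher one (1.37 ± 0.12, edgeR adjusted p = 1.63e-13). The list median was 1.46 in Huh6 and 0.98 in HepG2, where that of all genes was 0.00 and 0.02. MT2A stood in the opposite order between the lines to most of these genes, and in the same order as SLC7A11. Whether MT2A and these genes share a cause was not tested.

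Of 10 zinc importers, 1 rose and 3 fell in HepG2 at 10 µM iMDK, where 27.3% of all genes rose and 27.2% fell. In Huh6 2 rose and 4 fell, where 26% of all genes rose and 26.1% fell, so nothing is read from these counts about the importers as a list. SLC39A14 averaged 735 ± 8.26 CPM at 10 µM and 1180 ± 55.0 CPM with vehicle in HepG2 (log2 fold change -0.69 ± 0.030, edgeR adjusted p = 7.28e-22). SLC39A5 averaged 128 ± 4.74 CPM at 10 µM and 261 ± 7 CPM with vehicle in Huh6 (log2 fold change -1.03 ± 0.034, edgeR adjusted p = 1.02e-27). Of the exporters, SLC30A7 rose in HepG2 by 0.44 ± 0.049 at 10 µM (edgeR adjusted p = 4.51e-10).

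Macrophages co-cultured with tumour cells had less metallothionein RNA than macrophages alone, with the lowest means in co-culture with HepG2. The genes were chosen by this contrast too, so it is described and not tested. MT2A measured 26.6, 25.5 and 21.4 CPM with HepG2 and 30.7, 40.6 and 27.2 CPM with Huh6, against 76.0, 57.4 and 57.9 CPM alone. Co-cultured libraries lay below all libraries of THP-1 alone. Log2 fold changes were -1.38 ± 0.18 with HepG2 and -0.96 ± 0.18 with Huh6.

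MT1E measured 3.84, 4.25 and 4.21 CPM with HepG2 and 7.17, 8.99 and 5.65 CPM with Huh6, against 16.2, 14.8 and 15.1 CPM alone. MT1F measured 3.31, 4.19 and 3.40 CPM with HepG2 and 7.72, 10.5 and 7.16 CPM with Huh6, against 17.8, 18 and 14.9 CPM alone. MT1G measured 4.02, 2.73 and 2.38 CPM with HepG2 and 7.54, 7.37 and 4.20 CPM with Huh6, against 20.1, 13.2 and 15.1 CPM alone. For each of these genes the 3 groups stood apart, with HepG2 co-cultures lowest. Their log2 fold changes against THP-1 alone were -1.90 ± 0.18, -2.22 ± 0.30 and -2.39 ± 0.32 with HepG2, and -1.08 ± 0.17, -1 ± 0.28 and -1.34 ± 0.30 with Huh6.

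MT1M had 4, 5 and 0 counts with HepG2 and 7, 15 and 4 with Huh6, against 36, 26 and 17 alone. MTF1 averaged 32.8 ± 3.71 CPM with HepG2 and 44.8 ± 0.838 CPM with Huh6, against 48.8 ± 2.75 CPM alone. SLC30A1 measured 48.3, 44.6 and 73.3 CPM with HepG2 and 68.1, 72.7 and 69.8 CPM with Huh6, against 70.1, 85.6 and 86.7 CPM alone, and both co-cultures overlapped THP-1 alone. Past the edgeR threshold stood all 7 tested members as lower with HepG2, against 9.68% of all genes, and 3 with Huh6, against 0.503%. The contrast chose the members, so these counts are no evidence of their own. In such bulk libraries, fewer cells with a given RNA and less of it per cell cannot be told apart. If THP-1 alone were not sorted as the co-cultured cells were, sorting and co-culture could not be told apart either.

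**Figure D3:**
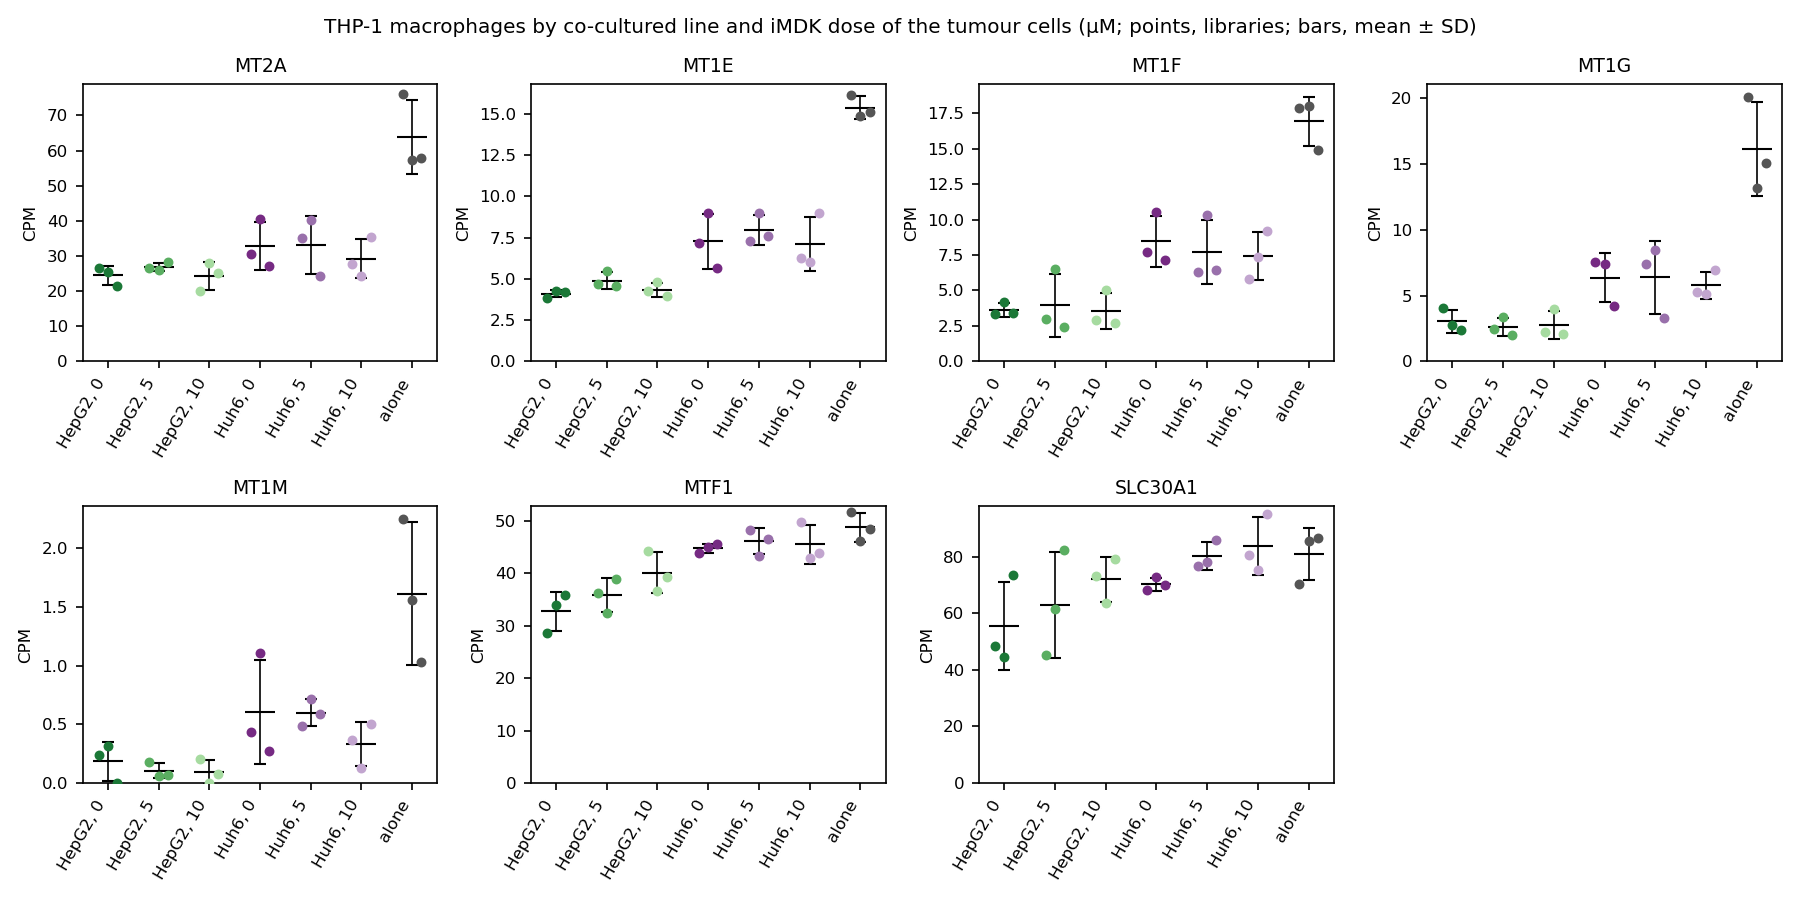
CPM of 7 genes in THP-1 macrophages co-cultured with HepG2 (green) or Huh6 (purple), by the iMDK dose in µM the tumour cells had received, and in THP-1 alone (grey); points are libraries and bars the mean ± SD of 3. MT2A averages 24.5 CPM with untreated HepG2 and 32.8 CPM with untreated Huh6, against 63.8 CPM alone, and iMDK leaves the co-culture groups overlapping for MT2A.

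Tumour reads entered these libraries unequally. Estimated from hepatoblastoma markers, they were 7.25 to 9.72% of a THP-1 library with untreated HepG2, 4.22 to 5.98% after 5 µM and 1.58 to 3.4% after 10 µM iMDK. With Huh6 they were 0.389 to 1.89% untreated, 0.172 to 0.343% after 5 µM and 0.150 to 0.221% after 10 µM. Levels were taken from tumour cells of the same line and iMDK dose, treated for 48 h without macrophages. On those levels, tumour reads would make up 24.6 to 39.8% of the MT2A counts and 56.0 to 69.2% of the MT1E counts in THP-1 with untreated HepG2. The share was 13.6 to 29.9% for MT1G, 12.9 to 16.3% for MT1F, 5.6 to 6.47% for MTF1 and 11.7 to 20.3% for SLC30A1. With the expected tumour reads subtracted, the log2 fold change with HepG2 against THP-1 alone was -3.18 for MT1E, -1.77 for MT2A, -2.25 for MT1F, -2.57 for MT1G, -0.48 for MTF1 and -0.59 for SLC30A1. All 6 stayed lower than in THP-1 alone. The summed macrophage markers were 6540 to 6850 CPM with HepG2 and 6330 to 6770 CPM with Huh6, against 6460 to 6520 CPM alone.

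**Figure D4:**
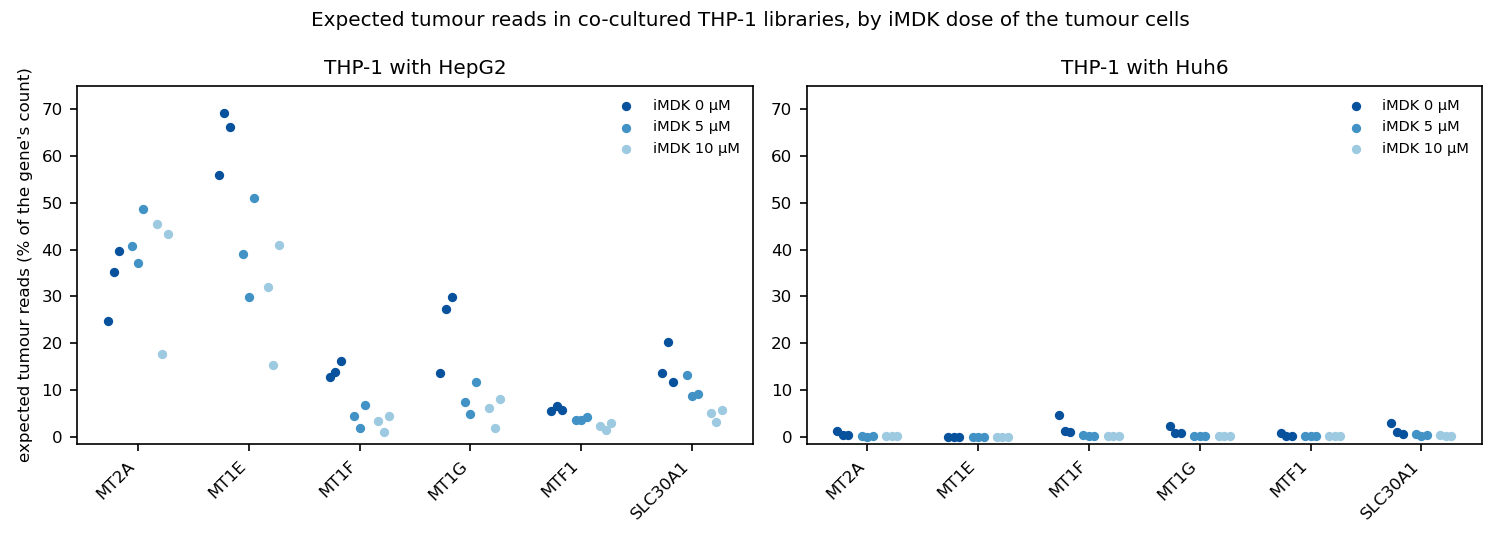
Expected tumour reads as a percentage of each gene's count in THP-1 libraries co-cultured with HepG2 (left) or Huh6 (right), coloured by the iMDK dose of the tumour cells in µM; each point is 1 of 3 libraries per dose. With untreated HepG2 the share reaches 69.2% for MT1E and 39.8% for MT2A, and with Huh6 it is at most 4.55% for MT1F.

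The co-cultures with HepG2 and Huh6 were also compared directly. This contrast did not itself choose the genes, but its libraries entered the contrasts that did. The fold of each co-culture against the same THP-1 alone was known. MT1F was lower with HepG2 than with Huh6 by a log2 fold change of -1.22 ± 0.30 (edgeR adjusted p = 0.00796), MT1G by -1.06 ± 0.33 (edgeR adjusted p = 0.0305), MT1E by -0.82 ± 0.18 (edgeR adjusted p = 0.00357) and MTF1 by -0.45 ± 0.099 (edgeR adjusted p = 0.00291). None of these 4 overlapped between the groups. That is 4 of 7 tested members lower and none higher, where 7.55% and 9.13% of all genes were. The count is not independent of the choice of genes, so nothing is read from it. With the expected tumour reads subtracted, the genes called over the whole table split into 1152 higher and 1547 lower, against 1415 and 1171 without the subtraction. MT2A (-0.42 ± 0.18, edgeR adjusted p = 0.123), MT1M (-1.61 ± 0.72, edgeR adjusted p = 0.138) and SLC30A1 (-0.34 ± 0.17, edgeR adjusted p = 0.197) did not pass.

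With the expected tumour reads subtracted, MT2A passed as lower with HepG2 (-0.82, edgeR adjusted p = 0.0153) and MT1E moved to -2.12 (edgeR adjusted p = 4.63e-06). Summed with all MT1 genes as 1 feature it passed as well (-0.63, edgeR adjusted p = 0.0163). Single libraries mattered here. MT1G did not pass without HepG2 co-culture replicates 2 or 3 or without Huh6 co-culture replicates 1 or 2 (edgeR adjusted p = 0.0955 to 0.117). MT1F did not pass without Huh6 co-culture replicate 2 (-1.02, edgeR adjusted p = 0.056). SLC30A1 passed once HepG2 co-culture replicate 3, its highest library, was left out (-0.57, edgeR adjusted p = 0.0241).

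After the tumour cells had been treated with iMDK before co-culture, no member passed the threshold in the macrophages in the edgeR fit without a replicate term. The reference here was the untreated co-cultures, whose libraries also entered the contrasts that chose the genes. With HepG2, MT2A averaged 24.5 ± 2.75 CPM untreated, 26.9 ± 1.14 CPM after 5 µM and 24.4 ± 3.98 CPM after 10 µM, and with Huh6 32.8 ± 6.94, 33.1 ± 8.16 and 29.2 ± 5.56 CPM. On the log2 scale the changes of MT2A were 0.13 ± 0.18 and -0.01 ± 0.18 with HepG2 and 0.01 ± 0.18 and -0.17 ± 0.18 with Huh6. None of 7 members passed in any of the 4 comparisons in that fit, where 0.0903% of all genes passed with HepG2 at 5 µM, 3.34% with HepG2 at 10 µM, 0.0129% with Huh6 at 5 µM and 0.0581% with Huh6 at 10 µM. With a term for the replicate number, 2 members passed as higher with HepG2 at 10 µM. They were SLC30A1 (0.40, edgeR adjusted p = 0.0312) and MTF1 (0.29, edgeR adjusted p = 0.0328). At an unadjusted p below 0.05 stood 2 members with HepG2 at 10 µM, MTF1 and SLC30A1, and 0 in the other comparisons, and DESeq2 called 0 in each. SLC30A1 with HepG2 at 10 µM (0.38 ± 0.18, edgeR adjusted p = 0.283) passed without the filter on low counts (0.36, edgeR adjusted p = 0.0302) and without untreated HepG2 co-culture replicate 3 (0.61, edgeR adjusted p = 0.0491). MTF1 with HepG2 averaged 40.1 ± 3.92 CPM after 10 µM and 32.8 ± 3.71 CPM untreated, without overlap. Its log2 fold change of 0.29 ± 0.099 did not pass in the fit without a replicate term (edgeR adjusted p = 0.12). The tumour share fell over the same doses, and expected tumour reads were 17.7 to 45.4% of MT2A and 15.3 to 40.9% of MT1E counts after 10 µM. With the expected tumour reads subtracted, MT1E with HepG2 passed at 10 µM (0.93, edgeR adjusted p = 0.0403). These estimates use tumour cells given iMDK for 48 h without macrophages, whereas the co-cultured cells had it for 24 h before co-culture. The effect of that difference was not tested.

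**Figure D5:**
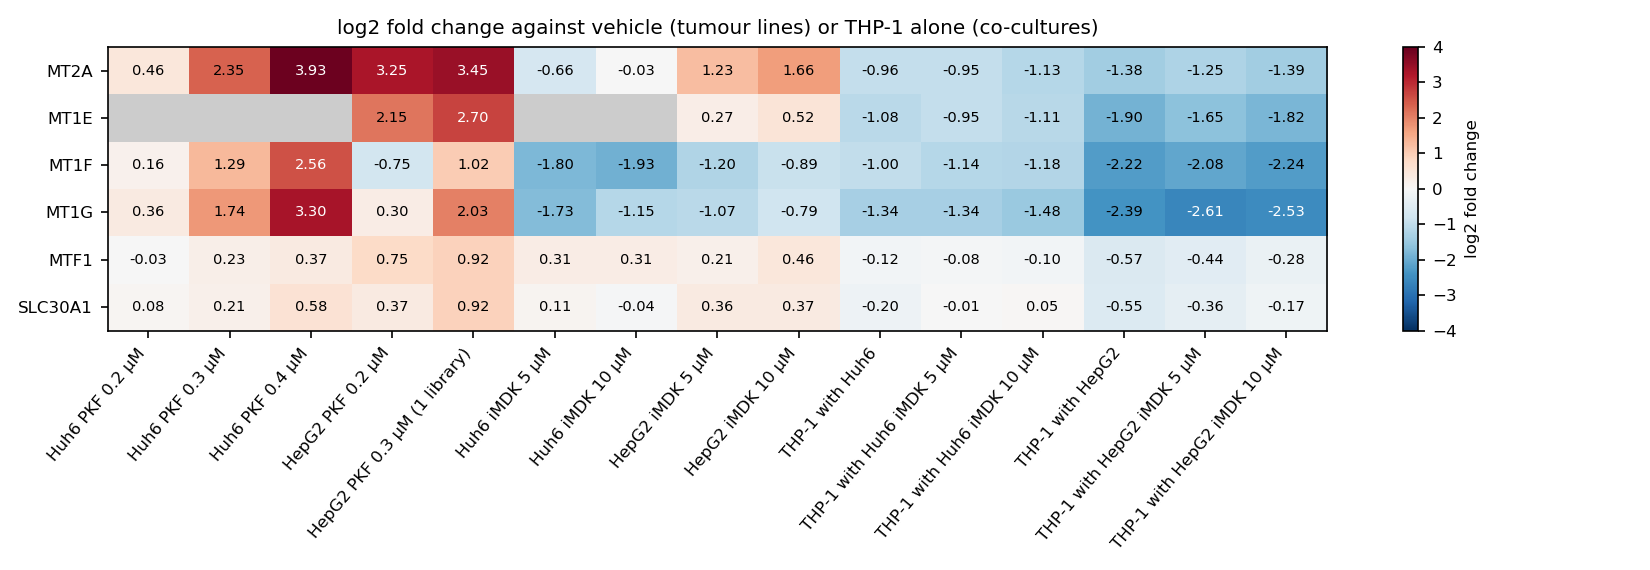
log2 fold change of 6 genes (rows) in 15 conditions (columns), against vehicle for the tumour lines and against THP-1 alone for the co-cultures; grey cells mark MT1E in Huh6, which had no counts to compare, and the HepG2 column at 0.3 µM PKF118-310 is 1 library. MT2A spans 3.93 in Huh6 at 0.4 µM PKF118-310 to -1.39 in THP-1 with HepG2 after 10 µM iMDK, and conditions of 1 cell type share their control.

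Likeness to MT2A was described by Pearson's r of log2 fold changes over all 15 conditions. These share their controls within a cell type and include the contrasts by which the members were chosen, so likeness among the members is not given. Among 12394 genes with a value in each condition, the 5 most like MT2A were ZBTB2 (0.957), RNF41 (0.957), MIDN (0.949), PPP1R15A (0.947) and NFKBIB (0.941). Those most like SLC30A1 were CELSR1 (0.952), GNAT2 (0.945), TOR1A (0.94), TMEM185B (0.94) and MTHFD2 (0.939).

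Of the genes that glucocorticoids induce, 3 of 7 rose and 3 fell in HepG2 at 10 µM iMDK, where 27.3% and 27.2% of all genes did, and 2 of 8 rose and 1 fell in Huh6, where 26% and 26.1% did. The list median was -0.14 in HepG2 and 0.12 in Huh6, where that of all genes was 0.02 and 0. Nothing is read from these counts about the list, and only TSC22D3 of the list is named here. TSC22D3, an early glucocorticoid target, rose by 2.49 ± 0.22 at 10 µM iMDK in HepG2 (edgeR adjusted p = 9.4e-13), and its value of 0.15 ± 0.081 in Huh6 did not pass (edgeR adjusted p = 0.133), a difference of 2.37 ± 0.23 between the lines (edgeR adjusted p = 3.82e-12).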

How the data were processed

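Per the labels' protocols, poly(A) RNA went into directional libraries. GRCh38, STAR 2.7.3a, featureCounts, SAMtools 1.16.1 and edgeR 3.36 are listed in the submitters' processing notes. Which annotation release, strand setting and rule for multi-mapping reads were used is not given in the sources. The authors deposited raw counts per gene, in 1 table for the tumour lines and 1 for THP-1, and no value is compared across the tables by a test.

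Each cell type was fitted on its own with edgeR 4.0.16 in R 4.3.3 (limma 3.58.1), with filterByExpr by group, TMM scaling, the quasi-likelihood F test and Benjamini-Hochberg adjustment over all genes, at a threshold of 0.05. The vehicle groups of both lines and their iMDK responses had fits of their own. A SE is the absolute log2 fold change divided by the square root of F. CPM are TMM-scaled within a fit. Folds against a group at 0 allow 3 counts over that group, and such bounds and the 95% intervals cover counting error only. Tumour reads in THP-1 libraries were estimated from those hepatoblastoma markers that reached 100 CPM in the tumour group of the same line and iMDK dose. That group was treated for 48 h without macrophages, whereas the co-cultured tumour cells had iMDK for 24 h before 24 h of co-culture. DESeq2 1.42.0 and the other alternatives are described in the closing section. The scripts were tested on simulated counts.

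The members and gene lists were chosen with earlier results of these data known. All 8 members are named, and of each other list up to 4 genes with the largest absolute log2 fold change past the threshold in a comparison, plus the 5 genes most like MT2A and like SLC30A1. A gene named for a comparison in 1 line may also be given for the other line.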

Additional observations from a re-analysis of the deposited data

Results flagged for a closer look

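The response to iMDK differed between HepG2 and Huh6 for several members, by a test of the difference itself in edgeR. On the log2 scale, HepG2 minus Huh6, MT2A differed by 1.90 at 5 µM and by 1.71 at 10 µM, where MT2A rose in HepG2 and did not rise in Huh6. SLC30A1 differed by 0.27 and 0.44 and MT1F by 0.61 and 1.07 at the same doses, and MT1G by 0.67 at 5 µM. MT1F and MT1G fell in both lines, and their differences are between falls of unequal size.

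With 0.2 µM PKF118-310, MT1F lay below vehicle in all HepG2 libraries (log2 fold change -0.75). In Huh6 all libraries lay above vehicle, but the log2 fold change of 0.16 did not pass the edgeR threshold. The lowest treated Huh6 library stood at 20.6 CPM and the highest vehicle library at 20.4 CPM. At 0.3 µM the single HepG2 library lay above vehicle, at 12.9 CPM. The difference between the lines was not tested.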

How the results depend on the processing

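Of 92 tested member results 42 passed the threshold, and 32 of these passed under every alternative run: DESeq2 size factors in edgeR, DESeq2, no filter on low counts, a replicate block, the summed metallothioneins, subtracted tumour reads and each library left out. None reversed. The other 10 are named in the report, except that MTF1 in HepG2 at 5 µM iMDK also missed under DESeq2 (adjusted p = 0.0604). Among the 92 results are MT1M in Huh6 with iMDK and MT1E in the iMDK response differences between the lines. Huh6 had no counts for either there, so these could not be measured. Without the filter, MT2A and SLC30A1 passed as lower with HepG2 than with Huh6 in THP-1 (edgeR adjusted p = 0.0191 and 0.0249), and SLC30A1 as higher with HepG2 at 10 µM iMDK (0.0302).

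Replicate numbers were to pair libraries only if every same-numbered pair correlated over 0.1. In Huh6 0 of 45 pairs did and in HepG2 0 of 18. In THP-1 43 of 63 did (median r 0.179, against -0.099 for different numbers) and 19 of 21 libraries correlated best with their own number, a hint from the data that the THP-1 numbers mark something shared, so the block values matter for THP-1. With the replicate block, genes called in THP-1 numbered 4505 between the co-cultures with HepG2 and Huh6 (2586 without), 614 and 1802 with HepG2 at 5 and 10 µM iMDK (14 and 518 without), and 21 and 75 with Huh6 (2 and 9 without). In Huh6 at 5 µM iMDK the block gave 5324 genes (5357 without). Under the block SLC30A1 (0.40, edgeR adjusted p = 0.0312) and MTF1 (0.29, edgeR adjusted p = 0.0328) passed as higher with HepG2 at 10 µM, and SLC30A1 passed as lower with HepG2 than with Huh6 (edgeR adjusted p = 0.0224).

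With HepG2 at 5 and 10 µM, no filter gave 320 and 854 genes and subtracted tumour reads, an alternative chosen after seeing the data, 310 and 790. With Huh6, no filter gave 111 and 167 and the subtraction 1 and 1. DESeq2 gave 149 with HepG2 at 5 µM and 20 and 44 with Huh6. Leaving out single libraries gave 1569 to 2859 genes between the co-cultures, 0 to 46 and 206 to 636 with HepG2, and 0 to 25 and 0 to 62 with Huh6. The cause was not tested.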
